A study of Sus scrofa with 10 samples.

Results

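Glycolysis turns glucose into pyruvate and lactate in the cytosol, and the liver runs most of its steps in both directions, since the same reversible enzymes serve gluconeogenesis. Glucose enters and leaves hepatocytes through the facilitative transporter GLUT2, encoded by *SLC2A2*. The enzymes considered here are the reversible ones: *GPI* interconverts glucose and fructose phosphates, *ALDOA* splits fructose bisphosphate, *TPI1* interconverts the triose phosphates, *PGK1* makes ATP, *ENO1* forms phosphoenolpyruvate, and *LDHA* and *LDHB* encode the subunits of the lactate dehydrogenase tetramer, which interconverts pyruvate and lactate. Of these 8 genes, 7 were measured, each by the only probe set that the platform annotation assigns to its symbol alone. No probe set carries the symbol *ALDOA*, which is not analysed. The whole array measured 4730 genes, each with at least 1 probe set of a mean log2 value of at least 4 over the arrays.

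The liver RNA came from 10 female pigs, 1 array each, of a cross in which sons of Iberian (Guadyerbas) boars and Landrace sows were mated back to Landrace sows, all raised on the same standard management and feed. The groups were the extremes of a principal component of carcass quality and muscle fatty acids: the 5 H animals were richer in polyunsaturated fatty acids in the *Longissimus dorsi* muscle, and the 5 L animals in saturated and monounsaturated ones. The grouping therefore describes muscle and not liver, and some animals of opposite groups were full or maternal sibs, which the labels do not identify. Values are GCRMA log2 intensities, and the median of the arrays lay between 3.77 and 3.84. All 10 hepatocyte markers listed, among them *ALB* and *APOA1*, were measured, and their mean lay between 14.53 and 14.85 in H and between 14.65 and 14.75 in L, while all 10 of 13 skeletal muscle markers with a probe set stayed within 0.5 of the lowest value, 2.19. Of the other lists of cell type markers, 5 of 10 macrophage, 4 of 9 endothelial, 6 of 9 stellate cell and fibroblast, 2 of 10 erythroid, 2 of 6 cholangiocyte and 1 of 10 lymphocyte markers were measured. None of the 30 markers measured differed between the groups at an unadjusted p under 0.05 by limma. The share of all genes was 2.64%, so little can be read from this count. In a bulk sample, fewer cells of a type and less RNA per cell cannot be told apart.

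The signals of the 7 genes were well above the lowest value on all 10 arrays. *LDHB*, the subunit that prevails in heart, was the brightest, with a mean of 14.08, above 98.9% of the measured genes. It was followed by *GPI* at 11.30, *LDHA*, the subunit that prevails in muscle, at 11.15, *PGK1* at 11.00 and *ENO1* at 10.88. These 4 ranges overlapped each other, whereas the range of *LDHB*, from 13.79 to 14.25, stood above them. *TPI1* had a mean of 9.46 and *SLC2A2* of 8.97, and their ranges overlapped each other but no other. Each probe set responds to its transcript in its own way, so this is an order of signals and not of transcript amounts. The reference table gives the symbol *LDHB* to 2 gene entries, and the annotation ties the probe set to the shorter, of 1280 bases, so the copies cannot be told apart by this signal.

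**Figure D1:**
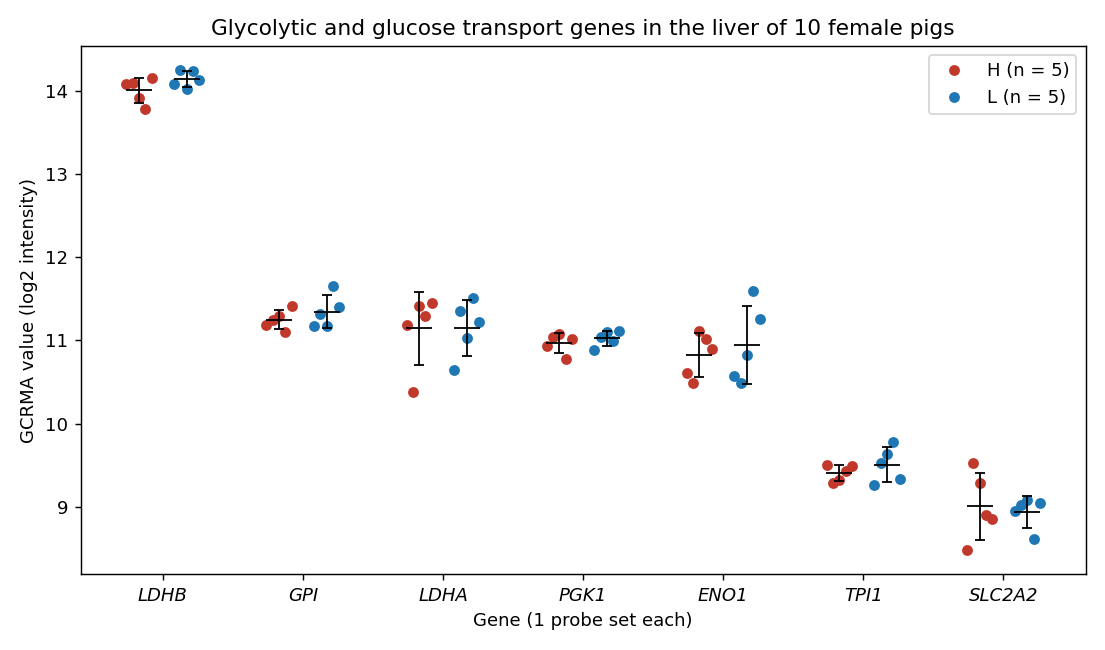
GCRMA value (log2 intensity, y axis) of the 7 measured genes (x axis), 1 point per animal, H in red and L in blue (n = 5 each), with the mean and SD in black. The 2 groups overlap for every gene, and single low points stand apart within their own group for LDHA (H2, at 10.38) and SLC2A2 (L4, at 8.61). The lowest SLC2A2 point of all is H1, at 8.48.

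The genes differed widely in how much they varied from animal to animal. *LDHA* and *ENO1* varied most, with pooled within-group SDs of 0.39 and 0.38, larger than those of 83.4% and 82.4% of the measured genes, whose median SD was 0.22. *SLC2A2* followed, with an SD of 0.32. *PGK1* was among the steadiest transcripts on the array, with an SD of 0.11, larger than that of only 8.27% of the genes, and the highest animal was 0.33 above the lowest. *LDHB*, *GPI* and *TPI1* had SDs of 0.13, 0.16 and 0.17.

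No difference between H and L was detectable for any of the 7 genes (limma, two-sided, adjusted over all genes). Of the 7, 0 had an adjusted p under 0.05, as did 0 of 4730 genes (0%), and 0 of the 7 had an unadjusted p under 0.05, against 2.64% of all genes. The groups overlapped for all 7, and 0.359% of all genes did not overlap. The log2 difference H minus L was below 0 for 6 of the 7, with a median of -0.09, where 62.8% of all genes lay below 0 and the median of all genes was -0.04. The 6 include *LDHA*, whose difference of -0.004 is too near 0 to have a direction. With single animals left out, the median of the 7 lay between -0.14 without L1 and -0.02 without L4, and it was -0.05 without L5. The adjusted p lay between 0.985 and 0.999, and 0.985 was also the smallest of all genes. The 95% confidence intervals, each for 1 gene and not adjusted for the number of genes, show how precisely the differences were estimated. The interval of *ENO1* reached furthest from 0, from -0.61 to 0.36, with a factor of 1.53 at its farther end. That of *PGK1* was the narrowest, from -0.24 to 0.12, with a factor of 1.18 at its farther end.

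Glucose transport was described by *SLC2A2*. Its log2 value was 8.48, 9.52, 9.28, 8.90 and 8.86 in H1 to H5 and 8.94, 9.02, 9.08, 8.61 and 9.04 in L1 to L5. Both the highest and the lowest animal were of the H group, and the L animals, except L4, lay close together. The means were 9.01 ± 0.40 in H and 8.94 ± 0.19 in L (SD, n = 5 per group), and H minus L was 0.07 (adjusted p = 0.985 by limma, standard error 0.19). It moved from -0.06 without H2 to 0.20 without H1.

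The sugar phosphate isomerases varied less. *GPI* lay between 11.10 and 11.42 in H and between 11.17 and 11.65 in L, and *TPI1* between 9.29 and 9.50 in H and between 9.26 and 9.78 in L. L4 was the highest animal for both. The log2 differences were -0.09 for *GPI* (standard error 0.11) and -0.10 for *TPI1* (standard error 0.11), and without L4 they were -0.02 and -0.03.

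In the lower part of the pathway, *ENO1* had a value of 10.61, 10.49, 11.11, 11.01 and 10.90 in H1 to H5 and of 10.57, 10.49, 10.82, 11.59 and 11.26 in L1 to L5. The 2 highest animals, L4 and L5, and the next to lowest, L2, were all of the L group. The means were 10.82 ± 0.27 in H and 10.95 ± 0.47 in L (SD, n = 5 per group), and the difference of -0.12 (standard error 0.22) was 0.04 without L4. *PGK1* measured 10.97 ± 0.12 in H and 11.03 ± 0.09 in L (SD, n = 5 per group), and H minus L was -0.06 (standard error 0.08), or -0.009 without H4 and -0.09 without L1.

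*LDHA* had a value of 11.18, 10.38, 11.41, 11.30 and 11.45 in H1 to H5 and of 10.64, 11.35, 11.03, 11.51 and 11.22 in L1 to L5. H2 and L1 were the 2 lowest animals, 1 in each group. The group means, 11.15 ± 0.44 in H and 11.15 ± 0.33 in L (SD, n = 5 per group), were almost equal (difference -0.004, standard error 0.22, 95% interval from -0.50 to 0.49). *LDHB* had a value of 14.09, 14.09, 13.92, 13.79 and 14.15 in H1 to H5 and of 14.09, 14.25, 14.03, 14.24 and 14.13 in L1 to L5. H3 and H4 were the lowest animals, while H1, H2 and H5 lay among those of the L group. *LDHB* had the smallest unadjusted p of the 7 genes, 0.156 by limma (adjusted p = 0.985), with 14.01 ± 0.15 in H and 14.15 ± 0.10 in L (SD, n = 5 per group), and H minus L was -0.14 (standard error 0.09), or -0.08 without H4.

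Subunit use was read from the difference *LDHA* minus *LDHB* within each array, which takes out any shift common to the array. It was -2.90, -3.71, -2.50, -2.49 and -2.70 in H1 to H5 and -3.44, -2.90, -3.002, -2.72 and -2.91 in L1 to L5. The lowest animal was H2 and the highest H4, both of the H group. The H animals averaged -2.86 ± 0.50 and the L animals -2.997 ± 0.27 (SD, n = 5 per group). H minus L was thus 0.13 with a standard error of 0.25 (two-sided exact permutation test, p = 0.595). With single animals left out it lay between 0.02 without L1 (exact permutation test, p = 0.960) and 0.35 without H2 (exact permutation test, p = 0.0556), and it was 0.04 without H3 and without H4. The value compares animals only, since the 2 probe sets need not respond alike, so its sign does not give the share of each subunit. *ENO1* could not be compared in this way with *ENO3*, the enolase of muscle, which had a mean of 2.19, the lowest value.

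*LDHA* was low in the animals with the largest 3' to 5' difference of the *GAPDH* control probe sets, which widens as RNA degrades. This difference was 2.70 in L1, 2.39 in H2 and between 1.68 and 2.08 in the other 8 animals, and averaged 1.96 ± 0.28 over the H and 1.99 ± 0.42 over the L animals (SD, two-sided exact permutation p = 0.897). Over the 10 animals *LDHA* had a Pearson's r of -0.814 with it (permutation test, p = 0.0120, adjusted over the 7 genes 0.0838) while Spearman's rho was -0.636 (permutation p = 0.0545, adjusted 0.374). After these values were seen, *LDHA* minus *LDHB* was counted as a further relation, 8 in all. The adjusted permutation p of r for *LDHA* was then 0.0489, under the threshold, and that of rho 0.285. This is no separate support, since the difference contains *LDHA* and so counts much of the same variation again. *LDHA* minus *LDHB* itself had an r of -0.789 (permutation p = 0.0122, adjusted 0.0489) and a rho of -0.552 (permutation p = 0.104, adjusted 0.285). Without L1 and H2, the r of *LDHA* alone was -0.236, so the relation of *LDHA* rests on them. With the 3' to 5' difference as a covariate, the H minus L difference of *LDHA* was -0.03. The other 6 genes had r between -0.568 (*TPI1*) and 0.114 (*SLC2A2*), and their smallest adjusted p was 0.307.

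**Figure D2:**
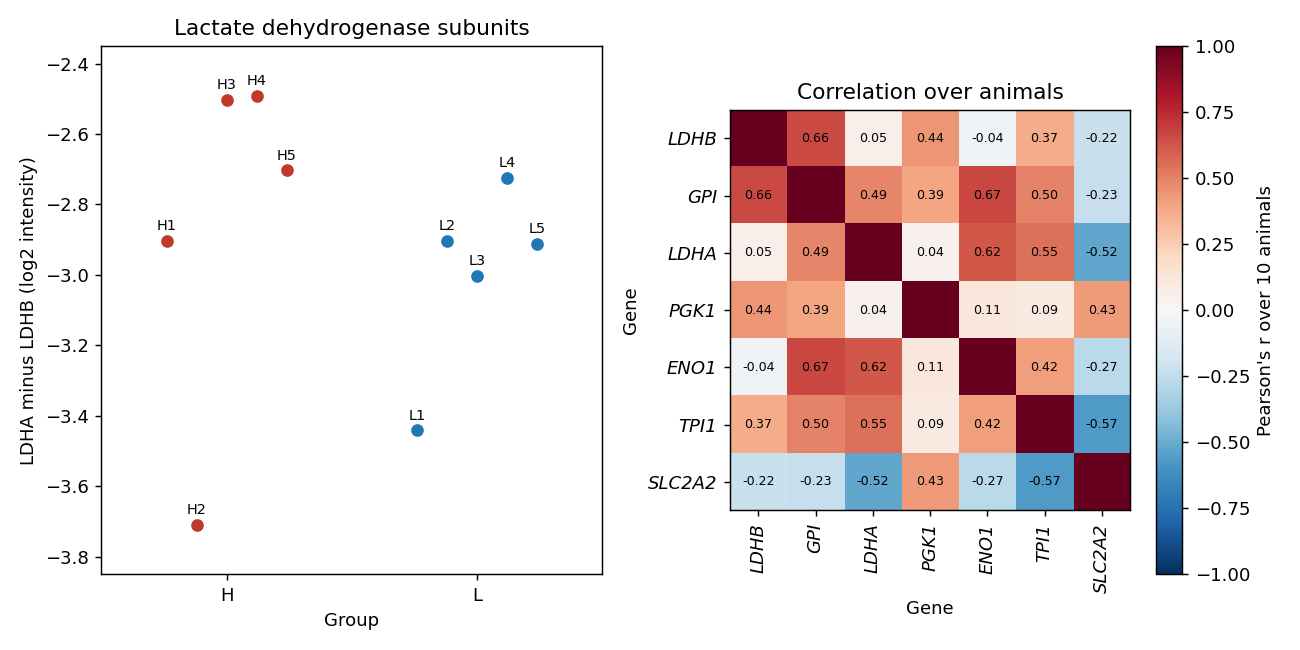
Left, LDHA minus LDHB (log2 intensity, y axis) of each animal by group (n = 5 each), where H2 and L1 are the lowest at -3.71 and -3.44. Right, Pearson's r over the 10 animals for each pair of the 7 genes, from -0.57 for SLC2A2 with TPI1 to 0.67 for GPI with ENO1.

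No pair of the 7 genes passed the correction for a correlation from animal to animal. Of the 21 pairs, 15 had a Pearson's r above 0, and the median r was 0.375. The highest were *GPI* with *ENO1* (r = 0.667, permutation p = 0.0329, rho = 0.418, permutation p = 0.230) and *GPI* with *LDHB* (r = 0.662, permutation p = 0.0401, rho = 0.794, permutation p = 0.00856), followed by *ENO1* with *LDHA* (r = 0.619, permutation p = 0.0564, rho = 0.661, permutation p = 0.0449). After Benjamini-Hochberg adjustment over the 21 pairs the smallest p was 0.395 for r and 0.180 for rho. L4 was the highest animal for *GPI*, *TPI1*, *ENO1* and *LDHA*. Without L4 and H4, r was 0.548 for *GPI* with *ENO1* and 0.370 for *GPI* with *LDHB*, and without L4 and L5 it was 0.611 for *ENO1* with *LDHA*. Other pairs changed sign when the 2 animals farthest from the median were left out: *GPI* with *TPI1* went from 0.497 to -0.074, *TPI1* with *ENO1* from 0.415 to -0.288 and *PGK1* with *LDHB* from 0.439 to -0.346. *ENO1* with *LDHB* went from -0.036 to -0.731. *SLC2A2* had an r of -0.567 with *TPI1*, -0.522 with *LDHA* (-0.200 without H2 and H1) and 0.429 with *PGK1*, and between -0.273 and -0.224 with the other 3. The smallest permutation p of r among its pairs was 0.0885. *LDHA* and *LDHB* had an r of 0.05.

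*PGK1* varied with the markers of Kupffer cells and macrophages, the resident phagocytes of liver. It was 10.94, 11.04, 11.07, 10.78 and 11.01 in H1 to H5 and 10.89, 11.04, 11.10, 10.99 and 11.11 in L1 to L5. The mean of the 5 measured markers, *CD163*, *C1QA*, *C1QC*, *CD14* and *VSIG4*, was 8.92, 9.28, 9.64, 8.87 and 9.33 in H1 to H5 and 9.06, 9.41, 9.60, 9.35 and 9.41 in L1 to L5. H4, H1 and L1 were the lowest for both. Pearson's r was 0.886 (permutation test, p = 0.00049) and Spearman's rho 0.806 (permutation test, p = 0.00749), and over the 28 relations of the 7 genes with 4 marker lists the adjusted p was 0.0137 for r but 0.210 for rho. Of the 28, 1 passed for r and 0 for rho. Within H r was 0.871 and within L 0.906, each over 5 animals, and without H4 and H1 it was 0.829. The call for r was lost without H4 (r = 0.843, adjusted exact permutation p = 0.146) and without L3 (r = 0.870, adjusted exact permutation p = 0.0532). Each of the 5 markers had an r above 0 with *PGK1*, from 0.579 for *CD14* to 0.889 for *C1QC*. With the means of the other lists, *PGK1* had an r of 0.629 for endothelial cells (permutation p = 0.0502, adjusted 0.411). It was 0.443 for hepatocytes and 0.159 for stellate cells and fibroblasts. The rho for endothelial cells was 0.673 (permutation p = 0.039, adjusted 0.306). *MARCO*, another macrophage marker, never rose more than 0.5 above the lowest value, and the part of these cells in the *PGK1* signal was not tested.

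No other gene of the pathway passed the test either. Of 32 other glycolytic genes listed, 20 had a probe set and 12 were measured. Their median log2 difference was -0.10, with 8 below 0 and 4 above, where 62.8% of all genes lay below 0. Of the 12, 0 had an unadjusted p under 0.05, against 2.64% of all genes. At the irreversible steps, *HK1*, a hexokinase of most tissues, measured 6.52 ± 0.16 in H and 6.84 ± 0.37 in L (SD, n = 5 per group). Its H minus L was -0.32 (unadjusted p = 0.0851 and adjusted p = 0.985 by limma, standard error 0.17). *PFKL*, the phosphofructokinase subunit of liver, measured 6.03 ± 0.17 in H and 6.31 ± 0.31 in L (SD, n = 5 per group). Its H minus L was -0.29 (unadjusted p = 0.0848 and adjusted p = 0.985 by limma, standard error 0.15). The log2 difference was 0.02 for *HK3*, a hexokinase of myeloid cells, -0.09 for *PFKM*, the phosphofructokinase subunit of muscle, -0.15 for *GAPDH*, which makes the substrate of *PGK1*, and -0.11 for *PKM*, the pyruvate kinase of most tissues. *HK3* had the same value, 5.15, on 8 of 10 arrays and *PFKM* the same, 4.55, on 6 of 10, so little can be read from their differences. *LDHD*, which acts on D-lactate, had a difference of -0.06 and the same value, 6.33, on 3 of 10 arrays. The isoforms *ENO2*, *LDHC* and *PGK2*, of neurons and testis, were at the lowest value, and *ALDOC* and *PFKP* had means of 2.85 and 2.96. No probe set carries the symbols *PKLR*, *HK2* or *PGAM1*, which are not analysed.

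**Figure D3:**
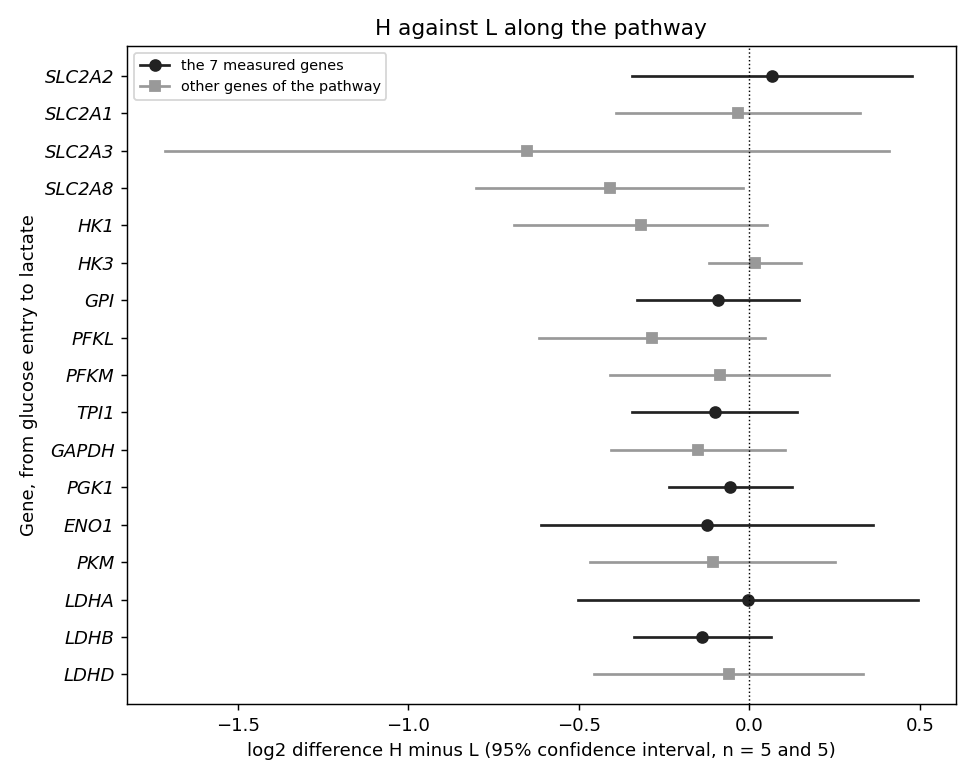
Log2 difference H minus L (x axis) with its 95% confidence interval (limma, n = 5 H and n = 5 L) for 17 genes ordered from glucose entry to lactate (y axis), the 7 measured genes as black circles and other genes of the pathway as grey squares. The intervals of all 7 hold 0. SLC2A8 is the only gene whose interval does not, which follows from its choice: it is plotted because its unadjusted p by limma was under 0.05.

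Among 17 genes of hexose, lactate and pyruvate transport, 7 were measured, 6 below 0 and 1 above, with a median of -0.07. Of all genes, 62.8% lay below 0 and 2.64% had an unadjusted p under 0.05. *SLC2A8*, a glucose transporter of intracellular membranes, was the only one with an unadjusted p under 0.05, 0.0423 by limma (adjusted p = 0.985). It measured 6.76 ± 0.22 in H and 7.17 ± 0.37 in L (SD, n = 5 per group), and the log2 difference was -0.41. *SLC2A3*, a high-affinity glucose transporter of neurons and blood cells, varied more than any of the 7 genes, with 5.43 ± 0.74 in H and 6.08 ± 0.95 in L (SD, n = 5 per group) and a difference of -0.65 (standard error 0.48). *SLC2A1*, the transporter of the blood-brain barrier, differed by -0.03 (standard error 0.16), and *SLC2A4*, the insulin-regulated transporter of muscle and fat, was at the lowest value. In the opposite direction of the pathway, 5 of 9 genes of gluconeogenesis and glucose release were measured, 2 below 0 and 3 above, with a median of 0.04. Of the lists of fructose and glycerol entry (5 of 9 measured), pyruvate dehydrogenase (6 of 11), the hypoxia response (11 of 21) and regulators that respond to glucose and insulin (6 of 15), the medians were 0.02, 0.03, 0.00011 and 0.04. In each of these 5 lists 0 genes had an unadjusted p under 0.05, and at the share of all genes, 2.64%, lists this short would hold few.

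The genes whose values over the 10 animals were most like those of each gene are given with Pearson's r as a description, since they were picked as the highest among 4729 others. They were *BROX*, *RNF146* and *SRSF11* for *SLC2A2* (r from 0.892 to 0.871), *NFIA*, *SQOR* and *INPP5A* for *GPI* (0.923 to 0.843), *TSTA3*, *RPL8* and *PDZD11* for *TPI1* (0.924 to 0.906) and *ELMO2*, *CLIC2* and *ITM2B* for *PGK1* (0.939 to 0.924). For *ENO1* they were *C7H14orf119*, *PLK2* and *EVA1B* (0.958 to 0.917), for *LDHA* *COPB1*, *ANKS4B* and *COQ5* (0.960 to 0.935) and for *LDHB* *PSMB6*, *ACOT6* and *ROMO1* (0.920 to 0.897). None of these 21 genes belongs to the pathway lists, and no gene is given for more than 1 of the 7.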

How the data were processed

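Liver RNA of each animal was hybridised to 1 Affymetrix GeneChip Porcine array. Scanned with GCOS, the arrays were background-adjusted, normalized and summarised by the authors with GCRMA, so the deposited values are log2 intensities, from 2.19 to at most 16.00. Tool versions are not given in the sources used here. After 124 control probe sets were left out, 10069 of 23999 probe sets carried 1 symbol in the platform annotation. A gene's value averages those of its probe sets whose mean reached 4. H and L were compared over 4730 genes with limma 3.58.1 in R 4.3.3 (lmFit, eBayes, no covariate, Benjamini-Hochberg, threshold 0.05), which was tested on simulated data. Over single probe sets the adjusted p of the 7 genes was at least 0.991. Correlations used 100000 permutations, or exact enumeration for 9 animals, in Python 3.11.15 (scipy 1.17.1, numpy 2.4.6, pandas 2.3.3), and figures matplotlib 3.10.9. A difference counted as turned under another setting where the sign changed and at least 1 of the 2 values was larger than its own standard error. The members, lists and tests were chosen with earlier results of these data known, and the relations with RNA quality and cell markers were added after the data were seen. Named genes are the members, isoform partners, irreversible or control steps, list members at an unadjusted p under 0.05, and the 3 genes most like each member. Arrays give no depth, and their number limits the precision. No sequence and no coordinates are given. Some genes of the pathway are not reported here.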

Additional observations from a re-analysis of the deposited data

Results flagged for a closer look

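Of 16 sets of 5 values checked, 8 measures in each of 2 groups, 2 had an animal whose gap to the nearest other, divided by the range of its group, was above Dixon's 95% limit of 0.71, where chance gives about 1 in 20. *LDHA* in H2, at 10.38, had a ratio of 0.750. *SLC2A2* in L4, at 8.61, had a ratio of 0.711, only just above the limit.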

How the results depend on the processing

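The 7 genes were refitted under 21 alternatives, which were other normalizations, filters, probe set rules, priors, array weights, a block for animal number, a covariate for RNA quality, and each animal left out. Of the 147 values, 0 had an adjusted p under 0.05 (the smallest 0.824), 0 an unadjusted p under 0.05 (the smallest 0.0970), and 1 turned: *LDHA* was at 0.19 without H2. Over all animals left out, *LDHA* lay between -0.13 and 0.19. Its value of -0.004 is too near 0 to have a direction, and it was at 0.01 with centring on the array median and 0.05 with array weights. No alternative called any gene of the array after adjustment, and the count at an unadjusted p under 0.05, 125, lay between 89 (without L4) and 280 (without L2) with single animals left out, and was 212 without H2. The cause was not tested. With the animal number as a replicate block it was 140, and 0 of the 7 genes passed. The numbers share no stated origin: deviations of same-numbered animals correlated between -0.237 and 0.281. The number of pairs that correlate stayed at 0 under each alternative run. *ENO1* minus *ENO3* was not run, because *ENO3* is at the lowest value, and no comparison with *ALDOA* was run, because no probe set carries its symbol.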
